A study of Mus musculus with 9 samples.

Results

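The genes described here are the 33 protein-coding mouse genes of the semaphorin, plexin and neuropilin families, chosen by symbol alone from the 21631 protein-coding RefSeq genes of GRCm38. They are 20 semaphorins, 9 plexins, 2 plexin domain containing genes and 2 neuropilins. Open chromatin around them was measured by ATAC-seq, an assay that uses a transposase (Tn5) to tag DNA not packed by nucleosomes. The cells were peritoneal macrophages purified by fluorescence-activated sorting, in 3 groups of 3 samples.

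Tissue-converted macrophages came from mice that received 2 ml of thioglycollate, which provokes a sterile inflammation with an influx of blood monocytes, and stayed on a tamoxifen diet for 8 weeks. Tissue-resident macrophages have no treatment of their own in the labels. Monocyte-derived macrophages were collected on day 4 after 2 ml of thioglycollate. All 3 groups shared the genotype Cx3cr1CreERT2-IRES-EYFP/+ Rosa26-stopfl-tdTomato/+, a tamoxifen-inducible Cre expressed from Cx3cr1 with a red fluorescent reporter, so labelling depends on Cx3cr1 activity. All mice also received complexes of IL-4 (5 µg) and antibody to IL-4 (25 µg) every other day from 4 days before harvest. Irritant, diet and time thus differ together with the origin of the cells, and their parts cannot be told apart. The sources used here give neither the age of the mice nor the sorting gates.

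Semaphorins are secreted or membrane-bound guidance proteins, first known from growing axons. Plexins are their receptors. The cytoplasmic part of a plexin deactivates small GTPases of the Ras and Rap families and so loosens integrin adhesion and the actin cytoskeleton. Neuropilins lack a signalling domain of their own and hold class 3 semaphorins, which are secreted, for plexins of the A group; they also bind forms of vascular endothelial growth factor. In immune cells the same proteins steer migration, contact between cells and activation.

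Each group has 1 deposited peak list, merged from its samples by the authors. Replicate error and depth are therefore unknown for everything reported here, and groups could not be tested against each other. Overlapping peaks (1 bp or more) from any of the lists were joined into a region, which a list calls when it contributes a peak to it. A gene was given the regions in its body and 10 kb on each side. The p-value printed for a region is that of the authors' peak caller for the list's strongest peak there. It has a floor of 1e-12. These p-values are given list by list as a description. With unknown depth, a smaller one in another list shows no difference in accessibility, and the same holds where both lists were ranked together or held to a common threshold. At unknown depth, a missing call shows only that no peak was detected. The converted list is the shortest (15552 peaks), followed by the resident (24348) and the monocyte-derived list (33694), and most genes with a region had fewer converted than monocyte-derived ones. Of the families' regions, 13 of the 58 resident and 2 of the 67 monocyte-derived ones have a p-value above 1e-05, while 0 of the 36 converted ones do.

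At gene starts, a few members differed between the lists and most did not. Of the 33 genes, 26 have a start in the RefSeq promoter table (GRCm38.p6), with 37 windows from 250 bases before to 50 bases after a start. A region overlapped 9 of these windows, each in a different gene. Converted cells had 8 of them, resident cells all 9 and monocyte-derived cells 7. Converted calls covered 21.6% of the 37 windows, resident calls 24.3% and monocyte-derived calls 18.9%. Over all 21045 windows of protein-coding genes the shares were 26.7% for converted, 33.2% for resident and 39.6% for monocyte-derived cells. The promoters of Plxna2 and Sema5a were called in both tissue lists and not in the monocyte-derived list, a pattern found at 0.432% of all windows (91). The promoter of Sema4d that held a region was called in resident and monocyte-derived but not in converted cells. The other 6, of Nrp2, Plxnb2, Plxnd1, Sema3c, Sema6b and Sema6c, were called in all 3 lists.

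Shown here are the 3 promoters that differed between lists, followed by 3 receptor promoters called in every list. Each runs 5′ to 3′ on the strand of its gene and comes from RefSeq (GRCm38.p6). Capitals mark the bases that lie inside a called region, merged over the lists. Plxna2 is at chr1:194619579-194619878 on the plus strand, Sema5a at chr15:32244563-32244862 on the plus strand, and Sema4d at chr13:51756634-51756933 on the minus strand. Nrp2 is at chr1:62703067-62703366 on the plus strand, Plxnb2 at chr15:89180739-89181038 on the minus strand, and Plxnd1 at chr6:115994956-115995255 on the minus strand.
Plxna2: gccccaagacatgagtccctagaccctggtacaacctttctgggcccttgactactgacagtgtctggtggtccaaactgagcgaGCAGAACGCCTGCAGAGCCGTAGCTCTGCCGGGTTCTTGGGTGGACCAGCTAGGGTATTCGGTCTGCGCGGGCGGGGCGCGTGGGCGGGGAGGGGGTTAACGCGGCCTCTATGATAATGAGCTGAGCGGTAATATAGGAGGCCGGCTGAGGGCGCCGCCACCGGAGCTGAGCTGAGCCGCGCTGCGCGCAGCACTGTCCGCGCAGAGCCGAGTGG
Sema5a: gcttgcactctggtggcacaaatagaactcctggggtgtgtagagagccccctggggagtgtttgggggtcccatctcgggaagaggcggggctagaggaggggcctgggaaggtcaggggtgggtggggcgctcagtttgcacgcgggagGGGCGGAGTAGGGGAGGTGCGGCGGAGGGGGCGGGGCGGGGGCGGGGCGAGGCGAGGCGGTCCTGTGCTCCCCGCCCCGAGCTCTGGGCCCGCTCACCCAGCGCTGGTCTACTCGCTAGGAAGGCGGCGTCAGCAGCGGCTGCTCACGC
Sema4d: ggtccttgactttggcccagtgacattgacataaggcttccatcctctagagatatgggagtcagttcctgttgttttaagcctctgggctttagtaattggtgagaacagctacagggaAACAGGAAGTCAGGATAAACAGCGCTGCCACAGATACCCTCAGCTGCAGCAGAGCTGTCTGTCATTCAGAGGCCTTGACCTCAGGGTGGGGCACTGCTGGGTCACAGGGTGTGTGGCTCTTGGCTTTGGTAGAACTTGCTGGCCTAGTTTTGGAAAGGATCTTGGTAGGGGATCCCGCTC
Nrp2: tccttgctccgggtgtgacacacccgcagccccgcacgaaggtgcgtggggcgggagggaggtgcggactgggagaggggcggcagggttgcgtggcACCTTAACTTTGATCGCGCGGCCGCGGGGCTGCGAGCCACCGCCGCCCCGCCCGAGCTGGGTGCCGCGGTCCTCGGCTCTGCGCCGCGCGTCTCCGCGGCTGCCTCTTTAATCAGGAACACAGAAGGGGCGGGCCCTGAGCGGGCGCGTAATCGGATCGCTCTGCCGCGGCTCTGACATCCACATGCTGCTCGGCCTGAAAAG
Plxnb2: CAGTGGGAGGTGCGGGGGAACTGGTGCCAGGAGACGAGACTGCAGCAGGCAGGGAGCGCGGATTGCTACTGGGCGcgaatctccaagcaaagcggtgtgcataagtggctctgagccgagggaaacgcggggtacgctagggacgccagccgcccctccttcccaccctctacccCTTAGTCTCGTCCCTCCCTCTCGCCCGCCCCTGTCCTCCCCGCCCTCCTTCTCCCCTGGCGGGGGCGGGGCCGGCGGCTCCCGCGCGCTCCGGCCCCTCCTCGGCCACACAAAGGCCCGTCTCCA
Plxnd1: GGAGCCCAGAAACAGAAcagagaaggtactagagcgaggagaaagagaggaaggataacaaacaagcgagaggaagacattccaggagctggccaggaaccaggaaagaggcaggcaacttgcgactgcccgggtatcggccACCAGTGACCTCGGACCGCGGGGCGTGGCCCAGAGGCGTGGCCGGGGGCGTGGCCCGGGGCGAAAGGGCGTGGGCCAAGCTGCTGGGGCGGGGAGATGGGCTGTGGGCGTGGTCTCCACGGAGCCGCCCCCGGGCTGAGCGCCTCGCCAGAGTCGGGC

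In the Plxna2 promoter 215 of the 300 bases lay in the region, in that of Sema5a 149 and in that of Sema4d 180. The sequences differ in composition. Plxna2 has 64.7% G and C and 25 CpG dinucleotides, Sema5a 71.3% and 23, and Sema4d 52.0% and 2. The Nrp2, Plxnb2 and Plxnd1 promoters have 37, 27 and 23 CpG. The median over all windows was 56.7% G and C and 13 CpG, and over the 37 windows of the families 63.7% and 15. The 9 windows with a region had a median of 23 CpG (2 to 42) and the 28 without had 14 (2 to 36). The GC box GGGCGG, read on both strands, was found in 8 of the 9 windows with a region, all but that of Sema4d. It was in 27 of the 37 windows (73.0%) and in 46.7% of all windows. The other 5 motifs searched, also on both strands, were the ETS core CCGGAA, the purine-rich core GAGGAA of PU.1 sites, the AP-1 site TGANTCA, the cyclic AMP element TGACGTCA and the TATA box TATAAA. Of these, only the PU.1 core and the AP-1 site occur in any of the 9. GAGGAA was found in 2 of the 9 (Plxnd1 and Sema6b) and in 27.2% of all windows, and the AP-1 site in 1 (Sema6b) and in 7.04% of all. The ETS core was in 4 of the 37 windows and 18.9% of all, the TATA box in 0 and 12.7%, and the cyclic AMP element in 0 and 2.26%. No motif searched contains another, and the ETS and PU.1 cores share their last 4 letters but cannot be the same site. A match is a description of the letters in the window and says nothing of binding.

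Plxna2, which encodes a receptor for class 6 semaphorins and, with neuropilins, for class 3 semaphorins, had the most regions of any member. It lies on chromosome 1 (194619791 to 194816869, 197 kb). Converted cells had 8 regions, resident cells 12 and monocyte-derived cells 8, out of 15. The equal counts of converted and monocyte-derived cells hid different positions. Within 50 kb after the start both tissue lists called 4 regions together that the monocyte-derived list lacked, at the promoter and at 6.41, 40.8 and 43.3 kb, and 1 more lay at 58.1 kb. The promoter region spans 194619664 to 194619913, with a peak 225 bp wide and at the floor of 1e-12 in each tissue list. The region at 6.41 kb (194626114 to 194626363) had a p-value of 3.00e-06 in converted and 1.85e-07 in resident cells, and that at 40.8 kb (194660489 to 194660713) had 1.92e-07 in converted and 8.27e-06 in resident cells. The 3 regions of all lists lay between 52.2 and 56.2 kb, and the strongest of them, 194671864 to 194672188, was at the floor in every list. No monocyte-derived region of this gene lay nearer to the start than that one. The 3 monocyte-derived-only regions followed at 68.0 to 68.5 kb, with p-values of 8.60e-06, 2.07e-07 and 3.36e-06. Resident cells had 2 regions of their own, and shared 2 further ones with monocyte-derived cells at 156 and 197 kb, the last of them (194816989 to 194817088) with 3.39e-06 in resident and 4.13e-06 in monocyte-derived cells. With peaks within 200 bp merged, the 3 monocyte-derived-only regions became 1. Plxna2 then had 8 converted, 12 resident and 6 monocyte-derived regions, so the equal counts rest on how close peaks are joined. With every list held to 15552 peaks, Plxna2 had 9 converted, 11 resident and 2 monocyte-derived regions.

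**Figure D1:**
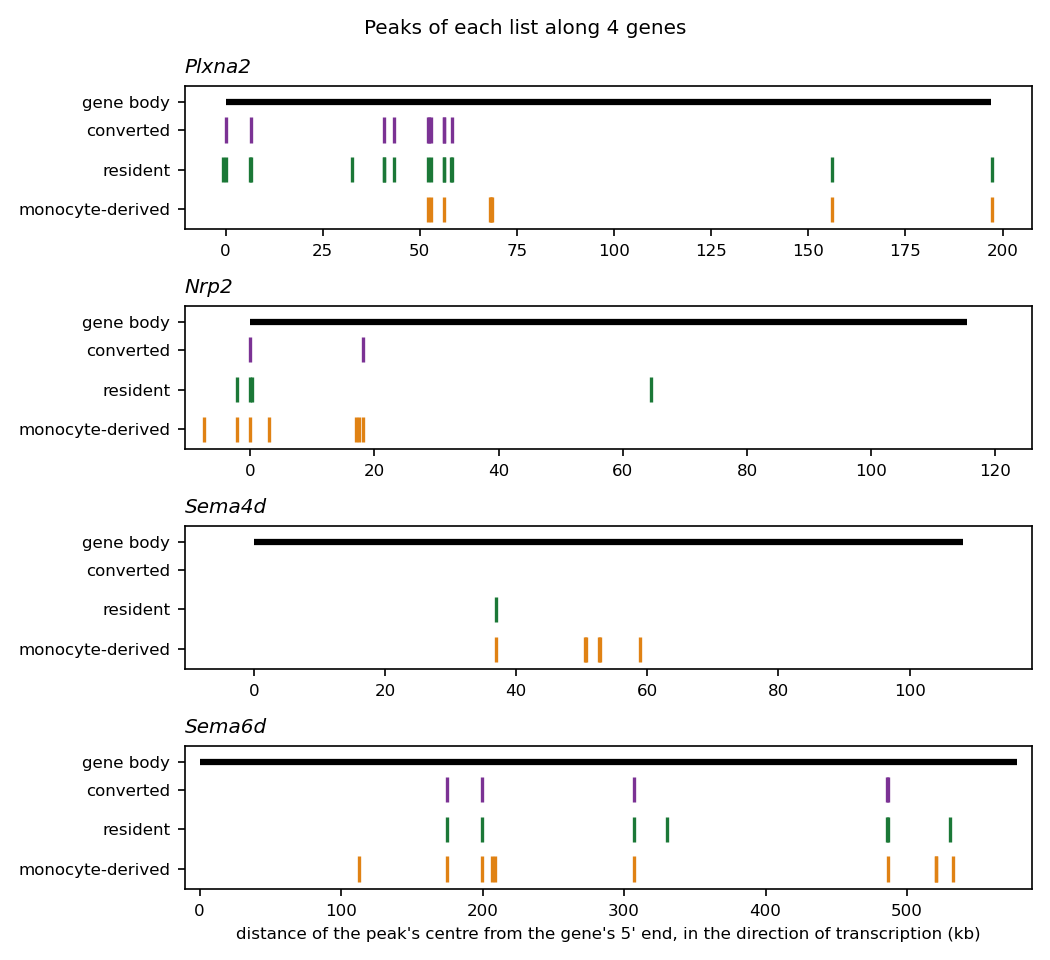
Peaks of the converted, resident and monocyte-derived lists along Plxna2, Nrp2, Sema4d and Sema6d, by the distance of the peak's centre from the 5′ end of the gene in kb, with the gene body as a black bar. In Plxna2 the stretch from the start to 50 kb holds tissue-list peaks and no monocyte-derived peak, and in Sema4d converted cells have no peak.

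Among the other plexins of the A group, Plxna4 had more regions in each tissue list than in the monocyte-derived list. Plxna4 encodes a receptor for class 3 and class 6 semaphorins that in mice takes part in Toll-like receptor responses of macrophages. It had 4 converted, 4 resident and 2 monocyte-derived regions. Both monocyte-derived regions, 32184589 to 32184888 and 32512064 to 32512238 on chromosome 6, were in all lists. The region 32158414 to 32158588 was in both tissue lists, with p-values of 1.69e-06 in converted and 8.27e-06 in resident cells, while 32158614 to 32158713 was resident-only and 32528239 to 32528313 converted-only. With peaks within 200 bp merged, 32158614 to 32158713 joined its neighbour of both tissue lists, and Plxna4 had 4 converted, 3 resident and 2 monocyte-derived regions. At equal list lengths Plxna4 had 4 converted, 1 resident and 0 monocyte-derived regions. Plxna1, which can pair with Trem2 and Tyrobp in myeloid cells, had 1 monocyte-derived region and none in the tissue lists. That region lies at the end of Plxna1 of higher coordinate (89362613 on chromosome 6) and at an end of the gene model Gm40415. The strand of Plxna1 was not available, so this end may be its start. With 50 kb on each side Plxna1 had 1 converted, 2 resident and 6 monocyte-derived regions, and by nearest gene end 2, 3 and 7 in that order. Plxna3 had none.

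Of the plexins of the B, C and D groups, Plxnb2, Plxnc1 and Plxnd1 had fewer regions in each tissue list than in the monocyte-derived list, and Plxnb1 had fewer in the converted list alone. Of all 13730 genes with a region, 71.3% had fewer converted than monocyte-derived regions. Plxnb2, a receptor for class 4 semaphorins, had 2 converted, 3 resident and 5 monocyte-derived regions. All lists called a pair of regions at its start, at 0.02 and -0.26 kb, and the strongest monocyte-derived-only region, 89177264 to 89177388, had a p-value of 2.07e-07. All 5 also lie within 10 kb of Dennd6b. With peaks within 200 bp merged, the pair at the start became 1 region, and Plxnb2 had 1 converted, 2 resident and 4 monocyte-derived regions. Plxnb1, the receptor for Sema4d in nervous tissue and elsewhere, had 0 converted, 1 resident and 1 monocyte-derived region, which was shared and lies 22.8 kb after the start. Plxnb3 had none. Plxnc1, the receptor for Sema7a, had 0 converted, 2 resident and 3 monocyte-derived regions, all at least 21.5 kb inside the gene. Its promoter window had no call in any list. Plxnd1, the receptor for Sema3e, had 1 converted, 3 resident and 5 monocyte-derived regions. All lists called its start, with p-values of 3.55e-06 in converted, 1.52e-06 in resident and 1e-12 in monocyte-derived cells, and 3 regions upstream of it were monocyte-derived-only. With peaks within 200 bp merged, the nearest of these 3 joined the start region, and Plxnd1 had 1 converted, 3 resident and 4 monocyte-derived regions. At equal list lengths the counts of Plxnd1 were 1, 2 and 1 in the same order of groups, and those of Plxnb2 were 2 in each list.

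Both neuropilins had the fewest regions in converted cells and the most in monocyte-derived cells, which is also the order of the list lengths. At equal list lengths this order was lost, with 3 converted, 2 resident and 3 monocyte-derived regions at Nrp1 and 2, 3 and 3 in that order at Nrp2. Nrp2 had 2 converted, 4 resident and 7 monocyte-derived regions. Its start was called in all lists, with p-values of 3.55e-06 in converted, 8.43e-06 in resident and 1e-12 in monocyte-derived cells. A group of regions at 17.1 to 18.2 kb inside the gene was called in monocyte-derived cells, one of them, 62720289 to 62720488 on chromosome 1, at the floor. Resident cells called none of that group and converted cells 1, at 18.2 kb. In turn, 2 regions of Nrp2, at 0.23 and 64.6 kb, were resident-only. With peaks within 200 bp merged, the region at 0.23 kb joined that of the start, and Nrp2 had 2 converted, 3 resident and 7 monocyte-derived regions. Nrp1 had 3 converted, 4 resident and 5 monocyte-derived regions. All 3 converted regions were in every list. The strongest of them, 128357164 to 128357538 on chromosome 8, lay at -1.72 kb from the listed start, where a minus sign means upstream, with a p-value of 1e-12 in converted, 5.63e-06 in resident and 7.44e-09 in monocyte-derived cells. When each region was given to its nearest gene end, which brings in the gene-poor flanks, Nrp1 had 6 converted, 8 resident and 17 monocyte-derived regions. The plexin domain containing genes, whose products resemble plexins in a short extracellular stretch and are not semaphorin receptors, had few. Plxdc1 had 0 converted, 0 resident and 1 monocyte-derived region, and Plxdc2 0, 1 and 1 in that order, at neighbouring positions that did not overlap. With peaks within 200 bp merged, these positions of Plxdc2 became 1 region of resident and monocyte-derived cells.

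**Figure D2:**
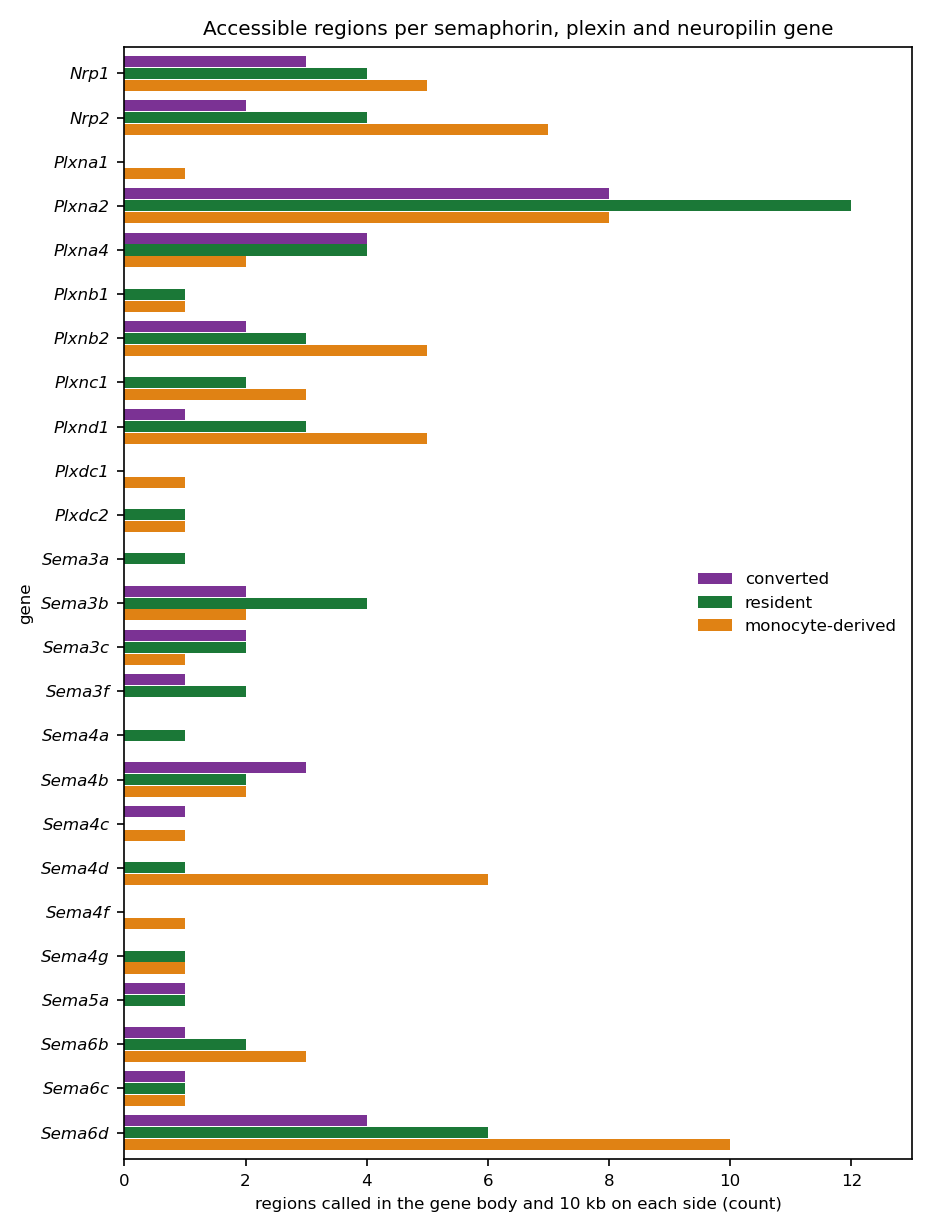
Number of regions called in each gene and its 10 kb flanks in the converted, resident and monocyte-derived lists, for the 25 genes with a region in any list. Plxna2 is highest in resident cells (12), Sema6d in monocyte-derived cells (10), and Sema4d has 6 monocyte-derived, 1 resident and no converted regions.

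Among the secreted class 3 ligands, Sema3c and Sema3f had more converted than monocyte-derived regions, Sema3a and Sema3b had equal counts in these lists, and Sema3d, Sema3e and Sema3g had none. Sema3c had 2 converted, 2 resident and 1 monocyte-derived regions. Its promoter region, 17574439 to 17574713 on chromosome 5, was at the floor in converted cells, against 1.20e-05 in resident and 6.73e-06 in monocyte-derived cells. Sema3f had 1 converted, 2 resident and 0 monocyte-derived regions. Of these, 107709889 to 107709988 on chromosome 9 was in both tissue lists. It lies inside the gene, 487 bp from the gene end of higher coordinate, which may be the start, since the strand of Sema3f was not available. The region 107685639 to 107685838 was resident-only with a p-value of 3.39e-06. Sema3a, the ligand best known for repelling axons through Nrp1, had 0 converted, 1 resident and 0 monocyte-derived regions. Sema3b had 2 converted, 4 resident and 2 monocyte-derived regions in a crowded stretch of chromosome 9. There the nearest gene ends are those of Ifrd2, Lsmem2 and Gnai2, so that by nearest gene end Sema3b had none. The stronger region of all lists there, 107612664 to 107612988 near Gnai2, had 3.77e-07 in converted, 1.49e-08 in resident and 1e-12 in monocyte-derived cells. With 50 kb on each side Sema3f had 3 converted, 5 resident and 6 monocyte-derived regions, so that both tissue lists stood below the monocyte-derived one, and Sema3b had 6, 12 and 18 in that order.

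Sema4d, a ligand of Plxnb1 and of the B cell protein Cd72 that is shed from leukocytes, had the largest net difference in region count of the members between resident and monocyte-derived cells and, tied with Sema6d, between converted and monocyte-derived cells. Converted cells had 0 regions, resident cells 1 and monocyte-derived cells 6. The shared region, 51756589 to 51756813 on chromosome 13, spans a listed start and had a p-value of 1.31e-05 in resident and 6.73e-06 in monocyte-derived cells. The other 5 lie between 51734664 and 51743138, with p-values of 3.00e-06 to 7.89e-06 and widths of 75 to 125 bp. None was near the floor. With peaks within 200 bp merged, Sema4d had 0 converted, 1 resident and 4 monocyte-derived regions. Its difference was then no longer the largest in either comparison. Plxna2 then had 12 resident and 6 monocyte-derived regions, and Sema6d 4 converted and 9 monocyte-derived ones. At equal list lengths Sema4d had 0 converted, 0 resident and 1 monocyte-derived region.

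Sema4b had 3 converted, 2 resident and 2 monocyte-derived regions, and was the member with the strongest converted-only region (80191539 to 80191663 on chromosome 7, p-value 2.24e-08, 4.73 kb after the start). A region at 80232514 to 80232938, called in all lists, lies at an end of Cib1. Sema4a, which acts on T cells, had 0 converted, 1 resident and 0 monocyte-derived regions, with a p-value of 1.18e-05. Sema4c had 1, 0 and 1 in the order converted, resident and monocyte-derived, at an end of Ankrd39 (36547164 to 36547413 on chromosome 1, with 3.69e-07 in converted and 3.55e-06 in monocyte-derived cells), and Sema4g 0, 1 and 1 at an end of Mrpl43. Sema4f had 1 monocyte-derived region only.

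Sema5a, which acts on plexins of the A and B groups, had 1 region, that of its promoter (32244714 to 32244888 on chromosome 15). The converted peak was 75 bp wide with a p-value of 4.70e-06, and the resident peak was 175 bp wide and at the floor. The monocyte-derived list had no call in the body of the gene, which spans 452 kb, or 50 kb on each side.

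Of class 6, Sema6d had the most regions. Sema6d is a ligand of Plxna1, and in mouse macrophages signalling through its own cytoplasmic part bears on lipid uptake and alternative activation. It had 4 converted, 6 resident and 10 monocyte-derived regions in 578 kb. All 4 converted regions were in every list, and 124264339 to 124264613 on chromosome 2 was at the floor in each. Of the 6 monocyte-derived-only regions, 124298839 to 124299113 was at the floor, and of the 2 resident-only ones 124620564 to 124620738 was the stronger, at 3.39e-06. Neither listed start of Sema6d was called in any list. At equal list lengths it had 4 converted, 3 resident and 6 monocyte-derived regions. Sema6b had 1 converted, 2 resident and 3 monocyte-derived regions. At a start inside Sema6b the converted peak was 75 bp wide, with a p-value of 5.61e-06, and the monocyte-derived peak was 325 bp wide and at the floor. Sema6c had 1 region (95160239 to 95160488 on chromosome 3), at a start, in each list, with p-values of 1.03e-10 in converted, 1.52e-06 in resident and 1e-12 in monocyte-derived cells.

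The remaining 8 members, Sema3d, Sema3e, Sema3g, Sema5b, Sema6a, Sema7a, Plxna3 and Plxnb3, had no region in any list. Genes without a region were common, since 63.5% of all genes had one. With 50 kb on each side, Plxna3 had 2 converted, 1 resident and 6 monocyte-derived regions, Plxnb3 had 2, 3 and 3 in that order, Sema3g 0, 0 and 3, and Sema7a 0, 1 and 1. Sema3d, Sema3e, Sema5b and Sema6a still had none.

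Counted over the families, a smaller share of the 97 regions was called in monocyte-derived cells than of all regions. Converted cells called 36 (37.1%, 95% Wilson interval 28.2 to 47.0%), resident cells 58 (59.8%, 49.8 to 69.0%) and monocyte-derived cells 67 (69.1%, 59.3 to 77.4%). Of all 36843 regions, 35.2% were called in converted, 55.4% in resident and 85.5% in monocyte-derived cells. Intervals cover counting error over regions only. Regions of both tissue lists without the monocyte-derived list numbered 8 (8.25%, 4.24 to 15.4%), against 1.94% of all regions. Of these 8, 5 lay in Plxna2 and 1 each in Plxna4, Sema3f and Sema5a. Another 33 regions (34.0%, against 39.5% of all regions) were monocyte-derived-only and 22 (22.7% against 28.1%) were in all lists. Resident-only regions numbered 19 (19.6% against 11.0%), and 9 (9.28% against 14.4%) were in resident and monocyte-derived cells alone. Converted-only regions and those of converted and monocyte-derived cells alone numbered 3 each (3.09%), against 1.55% and 3.56% of all regions.

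Where a pair of lists disagreed, the families' share stood above that of all regions in both comparisons with monocyte-derived cells. Between converted and monocyte-derived cells, 11 regions were converted only and 42 monocyte-derived only, so 20.8% (12.0 to 33.5%) lay on the converted side, against 6.08% of all disagreeing regions. Between resident and monocyte-derived cells, 27 were resident only and 36 monocyte-derived only, 42.9% (31.4 to 55.1%) on the resident side against 23.1% of all. Between converted and resident cells, 6 against 28 gave 17.6% (8.35 to 33.5%) on the converted side, close to the 16.8% of all. These comparisons share lists and are not independent. With every list held to 15552 peaks the side changed in all 3: 67.7% lay on the converted side against monocyte-derived cells (41.3% of all regions), 55.3% on the converted side against resident cells (46.0%) and 58.1% on the resident side against monocyte-derived cells (45.8%). At that length Plxna2 alone gave 8 of the 21 converted-only and 1 of the 10 monocyte-derived-only regions in the first comparison. In converted against resident cells it gave 2 of 21 and 4 of 17. In the last it gave 10 of the 25 resident-only and 1 of the 18 monocyte-derived-only regions, so that change of side leans on this gene. With all peaks and without Plxna2, 14.0% lay on the converted and 37.7% on the resident side against monocyte-derived cells, and 20% on the converted side against resident cells.

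Fewer regions of the families lay close to gene ends, 23.7% within 1 kb against 37.1% of all regions. Among regions over 1 kb away, 15.9% of disagreements (7 of 44) lay on the converted side against monocyte-derived cells, against 6.49% of all such regions, and 37.3% (19 of 51) on the resident side, against 23.2%. Within 1 kb, 44.4% (4 of 9) lay on the converted and 66.7% (8 of 12) on the resident side, against 5.06% and 22.7% of all such regions.

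By gene, 25 members had a region. In converted against monocyte-derived cells 5 had more (20% of the 25, against 2.86% of the 13730 genes with a region) and 14 had fewer (56.0% against 71.3%). The 5 were Plxna4, Sema3c, Sema3f, Sema4b and Sema5a, and all but Plxna4 had only 1 region more. At equal list lengths all 5 still had more. That setting keeps the whole converted list and shortens only the others, so this follows nearly by construction. Plxna2 (9 converted and 2 monocyte-derived regions) and Sema4c (1 and 0) also had more there. With 50 kb on each side Plxna4 and Sema5a still had more, Sema3c and Sema4b had equal counts, and Sema3f had fewer. In converted against resident cells 2 had more (8% against 7%), Sema4b and Sema4c, and 16 had fewer (64.0% against 46%). In resident against monocyte-derived cells 8 had more (32% against 12%) and 12 had fewer (48.0% against 55.2%). These 8 were Plxna2, Plxna4, Sema3a, Sema3b, Sema3c, Sema3f, Sema4a and Sema5a. The median difference per gene was -1 region for converted minus monocyte-derived, both in the families and over all genes. It was -1 for converted minus resident, against 0 over all genes, and 0 for resident minus monocyte-derived, against -1. The members are longer than other genes, with a median of 46.3 kb against 17.3 kb, and the part of length in these shares was not tested.

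**Figure D3:**
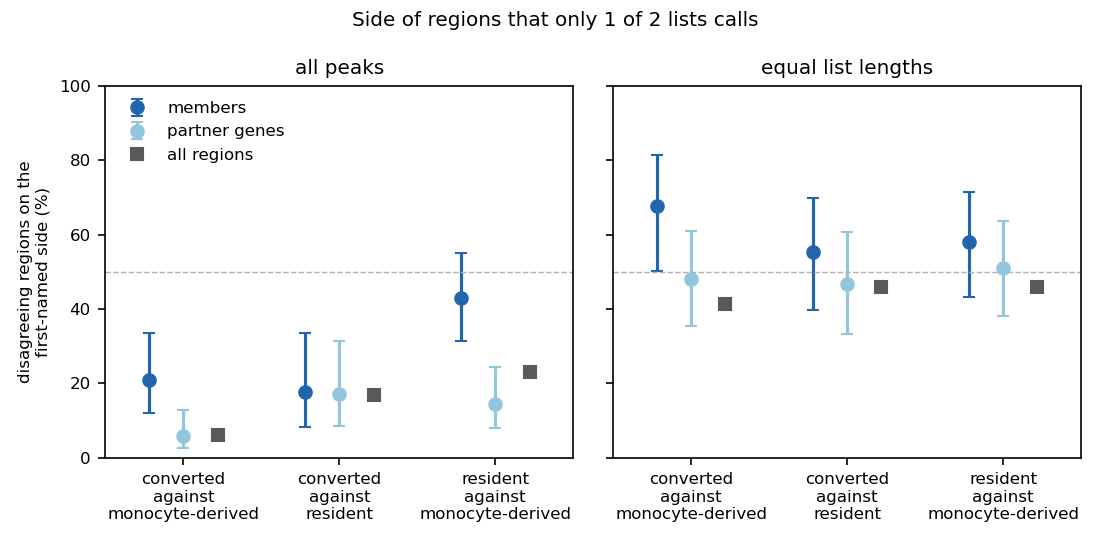
Share of regions called in only one of a pair of lists that lay on the side of the first-named list (vertical axis, %), for the semaphorin, plexin and neuropilin genes and their partner genes with 95% Wilson intervals, and for all regions (squares). With all peaks the families stand at 20.8, 17.6 and 42.9%, and with every list at 15552 peaks they stand at 67.7, 55.3 and 58.1%.

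A list of 46 genes that work with these receptors took in regulators of Ras, Rap and related small GTPases, collapsin response mediators, kinases, adhesion co-receptors, and Trem2, Tyrobp and Cd72. Of the 46, 41 had a region, with 146 regions in all. Converted cells called 38.4% of them, resident cells 56.8% and monocyte-derived cells 91.1%, against 35.2%, 55.4% and 85.5% of all regions. Of disagreements, 5.75% (5 of 87) lay on the converted side against monocyte-derived cells, 17.1% (7 of 41) on the converted side against resident cells and 14.3% (10 of 70) on the resident side against monocyte-derived cells. Over all disagreeing regions these shares were 6.08%, 16.8% and 23.1%, so the first 2 were close to the general share. The difference between partners and families was not tested. In converted against monocyte-derived cells 1 partner gene had more regions (2.44% of the 41, against 2.86% of all genes with a region) and 27 had fewer (65.9% against 71.3%). In converted against resident cells 4 had more (9.76% against 7%) and 21 fewer (51.2% against 46%). In resident against monocyte-derived cells 3 had more (7.32% against 12%) and 26 fewer (63.4% against 55.2%).

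The partners named next are the 4 with the largest net difference in each comparison. Ties went to the gene with more regions and then by order of name, and 1 further gene equalled Gsk3b and Rap1b in net difference and number of regions in all 3 comparisons. Tyrobp, the adaptor of Trem2 that Plxna1 can engage, had 0 converted, 2 resident and 6 monocyte-derived regions. Fyn, a kinase downstream of Sema3a, had 3, 4 and 8 in the order converted, resident and monocyte-derived. Gsk3b, another kinase of that pathway, had 2, 4 and 7, and Rap1b, a GTPase that plexins deactivate, 1, 3 and 6. Itga1, the integrin subunit through which Sema7a acts, had 3, 5 and 7. Dpysl3, a collapsin response mediator, had most regions in resident cells, with 1, 4 and 1.

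The labelled cell type was checked against marker genes counted in the same windows. All 8 macrophage markers had a region in some list, with 4 regions in converted, 13 in resident and 21 in monocyte-derived cells over the 8 genes. Csf1r, Cd68 and Lyz2 had a region in all 3 lists. Converted cells had none at Adgre1, Itgam, Mertk, Fcgr1 and Spi1, of which Adgre1, a surface receptor used to define mouse macrophages, had 4 resident and 1 monocyte-derived regions. Of 6 genes marking peritoneal macrophages, 5 had a region, with 4 converted, 6 resident and 7 monocyte-derived regions in all. Gata6, the factor that marks large peritoneal macrophages, had 2 converted, 1 resident and 0 monocyte-derived regions. Selp had 2, 2 and 3 in that order, Prg4 0, 1 and 4, Icam2 and Timd4 each 0, 1 and 0, and Cd5l had none. Of the B cell markers, Ms4a1 and Pax5 had none in any list, and the markers together had 2 converted, 2 resident and 3 monocyte-derived regions. Mast cell markers had none, and of the mesothelial markers Msln, Upk3b, Upk1b and Wt1 had none while Lrrn4 had 0 converted, 1 resident and 1 monocyte-derived region. Neutrophil markers had 1 converted, 2 resident and 0 monocyte-derived regions, eosinophil markers 1, 3 and 4 in that order, and T cell markers 1, 1 and 4, with none at Cd3e and Bcl11b. Ly6g, Epx and Prg2 had none. The part of other cells in the differences above was not tested.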

How the data were processed

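The submitters' processing notes name Bowtie2 2.2.9 and the builds mm10 and GRCm38 for the ATAC-seq reads of 9 samples (3 groups of 3). Peak calling, the shift for Tn5, duplicate handling and the merging of replicates were steps not given in the sources used here. The deposited files hold, per group, 1 merged list of peaks with a p-value for each peak and no counts, so depth and replicate spread are unknown. The threshold behind the lists is not documented in the labels' protocols, but the authors named each list for a p-value of 1e-05; 22.5% of resident, 3.76% of monocyte-derived and 0 converted peaks lie above it. Peak widths are multiples of 25 bp.

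Regions, windows of 10 kb and shares were computed as the report describes, with 95% Wilson intervals, in Python 3.11.15 with numpy 2.4.6, pandas 2.3.3, scipy 1.17.1 and matplotlib 3.10.9, and were tested on simulated data. Genes were placed by RefSeq (GRCm38.p6), in a table without exons, so exonic and intronic positions are not stated; strand and promoter sequences came from the RefSeq promoter table. All 2064 pairs of overlapping promoters matched over their overlap when read on the gene's strand. All members were accounted for; regions given with coordinates include the 5 strongest disagreeing ones per comparison and the 5 strongest shared ones, and others were added after their values were seen. Of the partners, the 4 with the largest difference in each comparison were named. Members, lists and settings were chosen with earlier results of these data known. Alternatives were equal list lengths (each list's 15552 peaks of smallest p, ties to wider peaks), p at most 1e-05 or 1e-10, gene bodies alone, 50 kb flanks, nearest gene end, a 50% minimum overlap (of the shorter peak), merging within 200 bp and, after seeing the data, leaving out Plxna2. Some items are not reported here.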

Additional observations from a re-analysis of the deposited data

How the results depend on the processing

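Shares below are of disagreeing regions on the side of the first-named list. With every list at 15552 peaks the families stood at 67.7% for converted against monocyte-derived, 55.3% for converted against resident and 58.1% for resident against monocyte-derived cells, and the partners at 48.1%, 46.8% and 50.9%. With p at most 1e-05 in every list, converted against resident moved to 38.9% for the families and 38.0% for the partners, where all regions stood at 35.1%. At p at most 1e-10 few regions were left. The families then stood at 50.0% (2 of 4 regions) for converted against resident and 18.2% (2 of 11) for resident against monocyte-derived cells, and the partners at 0% against monocyte-derived cells for both tissue lists and at 33.3% for converted against resident cells. With 50 kb on each side the families stood at 9.82% for converted and 31.0% for resident, each against monocyte-derived cells. The cause was not tested, except that a shorter or stricter list holds fewer peaks by construction. Gene bodies alone, nearest gene end, overlap of at least 50%, merging within 200 bp and leaving out Plxna2 kept all these shares within their intervals.

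For single genes the net is regions of the first list only minus those of the second only. At equal list lengths it turned to 1 for Sema6d, Nrp1 and Sema6b (converted minus resident) and for Plxnd1 (resident minus monocyte-derived). With p at most 1e-05 it turned to -1 for Sema3c, resident minus monocyte-derived. At p at most 1e-10 it turned to -1 for Sema4b (converted minus either other list), to 1 for Nrp1 (the same) and to -2 for Sema3b (resident minus monocyte-derived). With 50 kb flanks it turned to -1 for Sema4a, -6 for Sema3b and -1 for Sema3f in resident minus monocyte-derived, and to -3 for Sema3f in converted minus monocyte-derived. By nearest gene end it turned to -1 for Sema3a in resident minus monocyte-derived. No paired analysis was possible because the peak lists carry no replicates, only 1 merged set of peaks a group. For that reason no replicate could be left out either. Depth is unknown and limits every missing call.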
